A study of Mus musculus with 6 samples.

Results

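Cholesterol supply in a cell is set by enzymes that build the sterol, by a sensor that switches those enzymes on, and by proteins that take sterol up, move it and export it. The genes described here are 31 members of that system, chosen by name, of 54532 genes listed in the deposited table. They are 18 enzymes of cholesterol synthesis, 5 genes of the sterol sensor, 3 genes of sterol transport inside the cell and 5 genes of the liver X receptors (LXR) and their targets. The rule is a list of gene names, drawn up with earlier results of these data known. RNA sequencing was carried out on 6 libraries of N2a cells, a mouse neuroblastoma line that can be driven to grow neurites. Of these, 3 came from cells given si-NC, a control small interfering RNA (siRNA), and 3 from cells given si-circRtn4, an siRNA against circRtn4, a circular RNA made from the Rtn4 gene. The comparison asks how the transcriptome of N2a cells differs once circRtn4 is targeted. All 6 libraries share the cell line, the strain label (C57BL/6) and a labelled growth medium with fetal bovine serum, which itself brings lipoproteins. The study's methods state that transfected N2a cells were moved to a low-serum medium with retinoic acid for differentiation before harvest. The labels do not say whether these libraries saw that medium, so the serum level at harvest is not settled. Nothing in the labels says whether the 3 libraries of a group were separate cultures, so the p-values measure the spread between these libraries, which may be technical.

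When sterol in the membrane is low, SCAP escorts the SREBP transcription factors from the endoplasmic reticulum to the Golgi, where they are cut and released to switch on the synthesis enzymes. INSIG proteins hold SCAP back when sterol is plentiful. LXRs work the other way: they are activated by oxidised sterols and raise exporters such as ABCA1, and MYLIP, a ubiquitin ligase that sends lipoprotein receptors for degradation.

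Values are FPKM (fragments per kilobase of gene length, scaled to the depth of the library) as the authors deposited them, and the libraries held 13541198 to 15122063 reads each. Fold changes are differences of mean log2(FPKM + 1), si-circRtn4 minus si-NC, from limma, which understates changes of genes with few reads. A gene was called at an adjusted p under 0.05 over the 12749 genes whose mean level reached 1 FPKM. Over all those genes 4.36% were called higher and 4.82% lower in si-circRtn4. Rescaling to equal sums (TPM) shifted the median of all genes from 0.0020 to 0.090 and turned 556 higher and 615 lower calls into 972 and 393. Same-numbered libraries of the 2 groups deviated together, so a fit with the replicate number as a block is given where it changes a call. That fit called 9.29% of all genes higher and 9.75% lower. Rtn4 itself stood at 61.0, 66.8 and 69.8 FPKM in si-NC 1 to 3 and at 50.1, 56.7 and 62.7 FPKM in si-circRtn4 1 to 3, a log2 fold change of -0.22 with an adjusted p of 0.216 from limma. The table holds 1 value per gene, so it does not separate the circle from linear Rtn4 transcripts and does not check the knockdown. Of 12 markers of sympathoadrenal neuroblastoma all were above the minimum. Of these, 5 fell (Phox2a, Dbh, Th, Chga and Chgb), and the others were not called without the block. Dbh and Th passed the minimum only through si-NC, since their si-circRtn4 means were 0.602 and 0.712 FPKM. The fold change was negative for 11 of the 12 and positive for 1. The summed level of all 12 was 2540 to 2794 FPKM in si-NC and 1103 to 1576 FPKM in si-circRtn4. Most of that difference lay in Chgb, with means of 1300 FPKM in si-NC and 364 FPKM in si-circRtn4. Of 22 markers of fibroblasts, macrophages, astrocytes, oligodendrocytes and endothelium, 20 had a mean under 1 FPKM, and Aqp4 and Slc1a3 were at 0 in every library. The exceptions were Mbp (mean 3.81 FPKM) and Vwf (mean 1.51 FPKM). Vwf fell, and it too passed the minimum only through si-NC (si-circRtn4 mean 0.794 FPKM). The list summed to 8.47 to 10.5 FPKM in si-NC and 6.53 to 9.44 FPKM in si-circRtn4.

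Of the 31 genes, 29 passed the minimum and 3 were called: Mylip fell, and Abca1 and Npc2 rose. That is 1 lower and 2 higher of 29, beside the 4.82% and 4.36% of all genes, and such small counts stand near that background. In the fit with the replicate block 6 genes were higher (Abca1, Insig1, Lss, Msmo1, Npc2 and Pmvk) and 1 was lower (Mylip), beside 9.29% and 9.75% of all genes. No enzyme passed the test without the block. The log2 fold change was positive for 22 of the 29 genes and negative for 7, with a median of 0.11, where the median of all genes was 0.0020. This median depended on single libraries: it was -0.029 without si-circRtn4 3 and 0.28 without si-NC 3. In 5 genes (Insig2, Npc1, Npc2, Nr1h3 and Abca1) every si-circRtn4 library lay above every si-NC library, as in 16.2% of all genes. In Scap and Mylip every si-circRtn4 library lay below, as in 15.5% of all genes. Within same-numbered pairs, 15 of the 29 genes were higher in all 3 pairs and 4 were lower in all 3. Over all genes these shares were 28.4% and 28.3%, so the pattern in a single gene is common. The 29 genes together stood above the first share and below the second, a difference that was not tested.

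**Figure D1:**
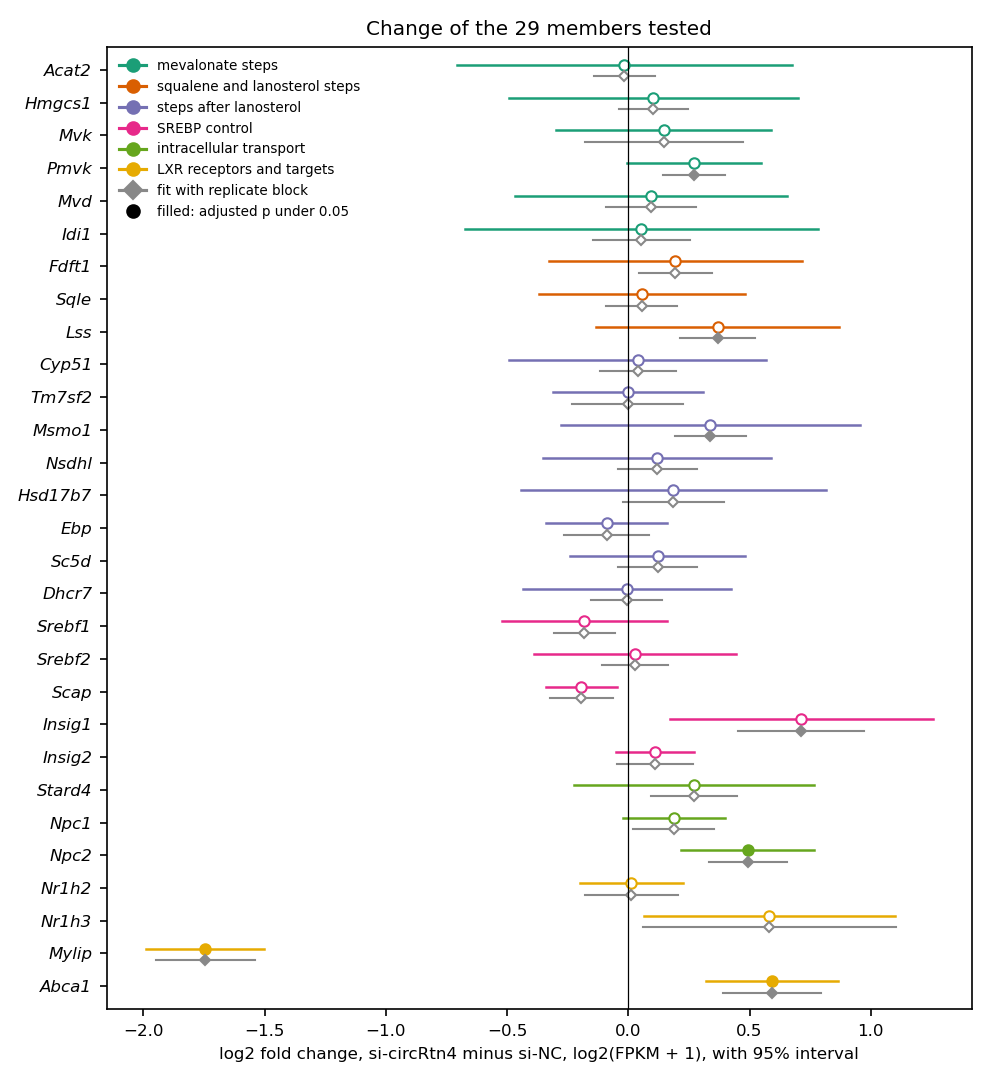
Log2 fold change (x axis, si-circRtn4 minus si-NC on the log2(FPKM + 1) scale) of the 29 genes tested, with 95% intervals; coloured circles are the fit without a block, grey diamonds the fit with the replicate block, and filled symbols have an adjusted p under 0.05. Mylip stands alone at -1.74, the intervals of the enzymes cross 0 without the block, and most narrow when the block is added.

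Mylip, the ligase that removes lipoprotein receptors, showed the largest change of the 29 genes tested here and the 9th largest fall of all genes tested. The gene (ENSMUSG00000038175) lies on the plus strand at chr13:45389742-45412022, coordinates that are the same in GENCODE M21 on GRCm38. Its level was 31.9, 27.2 and 27.4 FPKM in si-NC 1 to 3 and 8.001, 6.94 and 8.83 FPKM in si-circRtn4 1 to 3. The groups lay far apart, since the highest si-circRtn4 library was below the lowest si-NC library by a wide margin. The mean went from 28.9 ± 2.68 (SD, n = 3) to 7.92 ± 0.949 FPKM, 27.4% of control, on 349 to 1559 reads per library. The log2 fold change was -1.74 with a standard error of 0.10, a 95% interval of -1.99 to -1.50 and an adjusted p of 0.000641 from limma. The difference within same-numbered pairs was -1.87, -1.83 and -1.53. Under every alternative setting Mylip stayed lower, with adjusted p from limma between 8.17e-06 and 0.0114. An exact permutation test over the 6 libraries gave 0.1, the smallest p that 3 against 3 can give. In bulk RNA, fewer cells expressing a gene and less RNA per cell cannot be told apart. Of the 12 neuroblastoma markers 5 fell in the same libraries, and their part in the fall of Mylip was not tested.

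Abca1, the transporter that hands cholesterol to lipid-poor apolipoproteins at the cell surface, is also a target of the LXRs and moved the other way. The gene (ENSMUSG00000015243) lies on the minus strand at chr4:53030787-53159895. It stood at 2.29, 1.92 and 2.44 FPKM in si-NC and at 4.03, 3.30 and 4.23 FPKM in si-circRtn4, with no overlap. The mean went from 2.22 ± 0.267 to 3.85 ± 0.486 FPKM (SD, n = 3), 174% of control. The log2 fold change was 0.59, with a standard error of 0.12, an interval of 0.32 to 0.86 and an adjusted p of 0.0226 from limma. The pairs differed by 0.61, 0.56 and 0.60, and the adjusted p with the replicate block was 0.0101 from limma. The call did not hold at each setting. The adjusted p from limma was 0.0906 when every detected gene was tested, 0.0807 without si-NC 2, 0.0759 without si-circRtn4 1 and 0.0698 without si-circRtn4 3. Mylip and Abca1, both known as LXR targets, moved in opposite directions, and the part of the LXRs in either change was not tested.

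The receptors themselves were of unequal level. Nr1h2, which encodes the broadly expressed LXR beta, stood at 24.1, 19.8 and 21.2 FPKM in si-NC and at 22.05, 23.01 and 20.6 FPKM in si-circRtn4. These groups overlapped fully, and the difference of 0.01 on the log2 scale had an interval of -0.20 to 0.22 and an adjusted p of 0.950 from limma. Nr1h3, which encodes LXR alpha, was near the minimum, at 0.896, 0.607 and 0.881 FPKM in si-NC and at 2.24, 2.12 and 0.903 FPKM in si-circRtn4. The first 2 si-circRtn4 libraries were well above control, while si-circRtn4 3 stood at the control level. Nr1h3 passed the minimum only through the si-circRtn4 group, on 22 to 83 reads per library. Its fold change of 0.58 (standard error 0.22) had an adjusted p of 0.153 from limma. Leaving out any of the other 5 libraries gave fold changes of 0.45 to 0.62 with adjusted p of 0.199 to 0.348 from limma. Leaving out si-circRtn4 3 gave 0.83 and 0.0357, but that fit drops the si-circRtn4 library at the control level and is no support for a difference. Abcg1, another LXR-driven sterol exporter, had 0 reads in 5 libraries and 1 read in si-circRtn4 1. A count of 0 allows up to 3 reads in a library, so no difference was detectable at this depth.

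**Figure D2:**
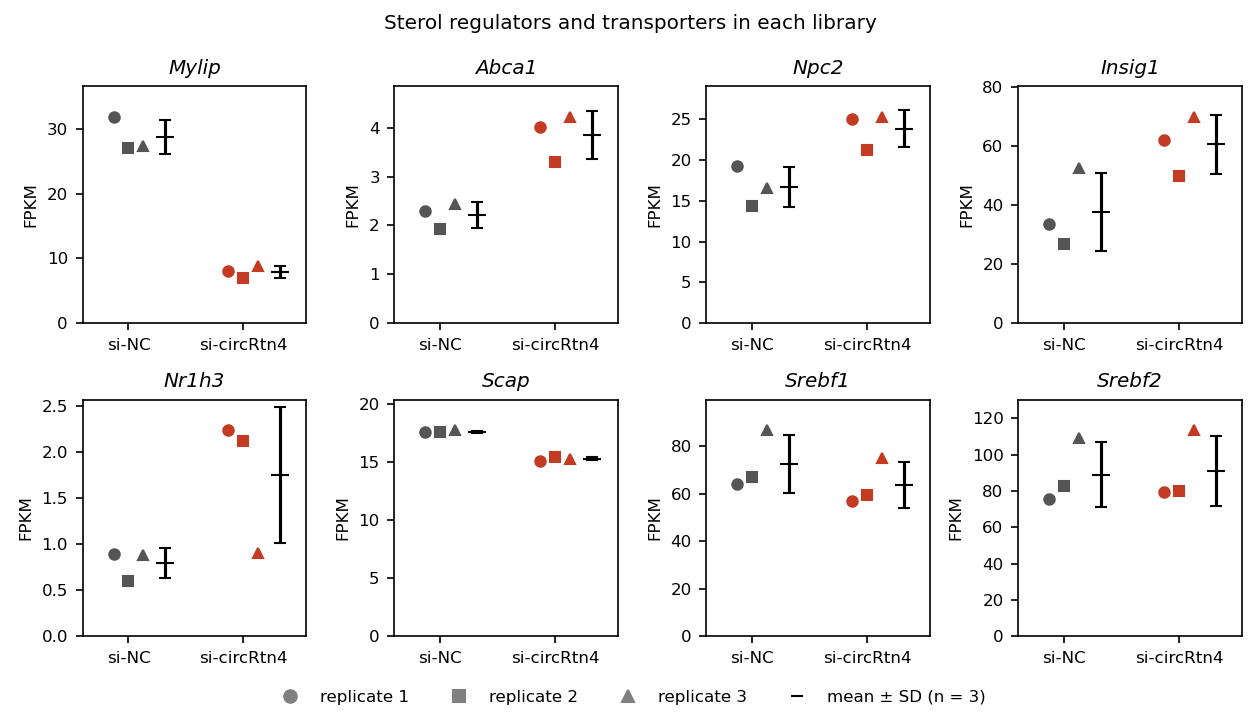
FPKM (y axis, from 0, own scale in each panel) of 8 regulators and transporters in each library; symbols mark replicates 1 to 3, grey for si-NC and red for si-circRtn4, and bars are mean ± SD (n = 3). Mylip, Abca1, Npc2 and Scap separate the groups clearly, Insig1 overlaps because si-NC 3 is high, and Nr1h3 in si-circRtn4 3 sits at the control level.

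Of the 3 genes of intracellular transport, Npc2 passed the test. NPC2 is the soluble lysosomal protein that passes cholesterol from degraded lipoproteins to the membrane protein NPC1. Npc2 (ENSMUSG00000021242; minus strand, chr12:84754562-84773152) stood at 19.2, 14.4 and 16.5 FPKM in si-NC and at 25.0, 21.3 and 25.3 FPKM in si-circRtn4. The groups did not overlap, and the mean went from 16.7 ± 2.43 to 23.9 ± 2.24 FPKM (SD, n = 3), 143% of control. The log2 fold change was 0.49 (standard error 0.12, interval 0.22 to 0.77, adjusted p of 0.0419 from limma). It was close to the threshold. The adjusted p from limma was 0.00945 with the replicate block, and it was 0.121 when every detected gene was tested. Without si-NC 2, si-NC 3, si-circRtn4 1, si-circRtn4 2 or si-circRtn4 3 it was 0.125, 0.104, 0.118, 0.0636 and 0.114, and Npc2 stayed past the threshold only without si-NC 1.

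Its partner Npc1 was at 5.20, 5.32 and 4.41 FPKM in si-NC and at 6.06, 5.86 and 5.46 FPKM in si-circRtn4. Each si-circRtn4 library was above each si-NC library, but the difference of 0.19 on the log2 scale had an adjusted p of 0.244 from limma. Reads of the opposite-strand neighbour Rmc1, at 3.61 to 4.28 FPKM, could not be told apart from those of Npc1 if counting ignored strand, which the sources used here do not give. Stard4, a soluble carrier that moves sterol between membranes, stood at 6.54, 7.92 and 11.6 FPKM in si-NC and at 9.11, 9.13 and 13.5 FPKM in si-circRtn4. Replicate 3 was the highest of each group, and the difference of 0.27 had an adjusted p of 0.479 from limma, or 0.0528 with the replicate block. It was 0.097 without si-circRtn4 3 and 0.48 without si-NC 3.

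Among the genes of the sterol sensor, Insig1 had the largest difference. INSIG1 holds SCAP in the endoplasmic reticulum, and its own gene is a target of SREBP. Insig1 (ENSMUSG00000045294; plus strand, chr5:28071363-28078662) stood at 33.6, 27.0 and 52.6 FPKM in si-NC and at 61.95, 50.04 and 69.96 FPKM in si-circRtn4. Each si-circRtn4 library was above its same-numbered control, by 0.86, 0.87 and 0.41 on the log2 scale, although si-NC 3 lay above si-circRtn4 2. The mean went from 37.7 ± 13.3 to 60.7 ± 10.0 FPKM (SD, n = 3), 161% of control. The fold change of 0.71 had a standard error of 0.23, an interval of 0.17 to 1.25 and an adjusted p of 0.103 from limma. With the replicate block the adjusted p was 0.0120, and limma-voom, run on reads recovered from the FPKM, gave 0.75 and 0.0234. Without si-NC 3 the fold change was 0.97 with an adjusted p of 0.0268 from limma. Without any of the other 5 libraries the adjusted p was 0.132 to 0.249, and it was 0.264 when every detected gene was tested. Insig2, the other INSIG gene, stood at 9.82, 10.4 and 9.59 FPKM in si-NC and at 10.9, 10.5 and 11.01 FPKM in si-circRtn4. The groups just failed to overlap, and the difference of 0.11 had an adjusted p of 0.367 from limma.

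Scap, the escort that carries SREBP out of the endoplasmic reticulum, was the steadiest of these genes within groups. It stood at 17.6, 17.6 and 17.8 FPKM in si-NC and at 15.2, 15.4 and 15.3 FPKM in si-circRtn4. All 3 si-circRtn4 libraries were below all 3 controls, at 86.7% of their mean. The difference of -0.19 on the log2 scale had an interval of -0.34 to -0.05, an unadjusted p of 0.0157 and an adjusted p of 0.1001 from limma, or 0.0545 with the replicate block, so it did not pass the test.

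The SREBP genes were the most abundant of the 31 per unit of length. Srebf2, the factor for the cholesterol enzymes, stood at 75.4, 82.7 and 109 FPKM in si-NC and at 79.4, 80.1 and 113 FPKM in si-circRtn4. Replicate 3 was the highest in both groups, and the group difference was 0.03 with an interval of -0.39 to 0.44 and an adjusted p of 0.946 from limma. Srebf1, the factor for fatty acid genes, stood at 63.8, 66.8 and 86.5 FPKM in si-NC and at 56.8, 59.3 and 74.7 FPKM in si-circRtn4. It was lower in each pair, by -0.17, -0.17 and -0.21 on the log2 scale. Its difference of -0.18 had an adjusted p of 0.488 from limma, or 0.0614 with the replicate block. It was -0.30 without si-circRtn4 3 and -0.048 without si-NC 3. Rai1, which overlaps Srebf1 on the opposite strand, was at 31.5 to 34.6 FPKM. SREBP activity depends on cleavage of the protein, which mRNA levels do not measure.

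The seeds of the RNAs used or followed in the study are shown because a short siRNA or microRNA can lower transcripts that match its bases 2 to 8. The study followed miR-24-3p beside circRtn4. The listed strand of si-circRtn4, its complement (the guide if the listed strand is the passenger) and the microRNA are given 5′ to 3′. In the listed strand, capitals mark the site that pairs with the seed of the guide, and in the others capitals mark the seed.
si-circRtn4 as listed: cttcagatgagACCCTTTt
si-circRtn4 guide: aAAAGGGUcucaucugaag
miR-24-3p: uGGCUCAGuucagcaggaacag

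The matching sites are ACCCTTT for the guide, ATCTGAA for the listed strand and CTGAGCC for miR-24-3p, searched on the transcript strand of the 3′ UTR that follows the stop codon in GENCODE M21 (GRCm38). Of 10694 tested genes with a UTR, 12.5% held the site of the guide, 13.2% that of the listed strand and 19.6% that of miR-24-3p. Of the 29 tested genes here, 2 (Fdft1 and Hsd17b7), 5 (Fdft1, Insig1, Npc1, Nr1h3 and Abca1) and 2 (Insig1 and Npc2) held them. The search took the longest annotated UTR of each gene and counted only whole matches of 7 bases. Shorter matches, other transcripts and coding sequence were not searched. Within those limits the UTR of Mylip, 1512 bases long, held none of the 3 sites. The sites of miR-24-3p lay in Npc2, which rose, and in Insig1, which passed the test only in the fits named above. A single site per gene and the sites of the guide in the tested genes are shown with the bases around them, the site in capitals.
Insig1, plus strand, site at chr5:28077787-28077793: tgaaaaccaatCTGAGCCttgtattctcg
Npc2, minus strand, site at chr12:84755416-84755422: atcctttcaccCTGAGCCcaccctatctt
Fdft1, minus strand, guide site at chr14:63145358-63145364: acctgtatatgACCCTTTggggtacgctc
Hsd17b7, minus strand, guide site at chr1:169951555-169951561: ttggagaaaacACCCTTTtctggggttgt

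Neither tested gene with a site of the guide was called lower. Fdft1, which encodes squalene synthase, differed by 0.19 with an adjusted p of 0.642 from limma, and its neighbour Ctsb on the opposite strand, at 84.5 to 101 FPKM, overlaps it. Hsd17b7, a reductase of the late pathway, differed by 0.19 with an adjusted p of 0.724 from limma. A match of letters is not a shown site of action, and none of the 4 sites shown was followed by an A on the transcript, a feature known to strengthen such matches. The sites of the listed strand in Fdft1 and Npc1, which are not shown, were followed by an A.

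The 18 enzymes were measured from acetoacetyl-CoA to cholesterol, and 17 passed the minimum, with means of 3.68 to 48.2 FPKM. None passed the test, and adjusted p from limma ran from 0.199 to 0.992. limma-voom on the recovered reads called 0, beside 7.08% of all genes called higher and 5.69% called lower. Fold changes ran from -0.09 to 0.37 with a median of 0.10, and 13 were positive and 4 negative. The precision was low, since the standard error had a median of 0.22 for the enzymes and 0.11 for all genes. With the replicate block the medians were 0.063 and 0.076, and 3 of 17 enzymes were called higher (Pmvk, Lss and Msmo1), beside 9.29% of all genes.

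The spread lay between replicate numbers and was shared by both groups. Summed over the 18 enzymes, the level was 236, 239 and 355 FPKM in si-NC 1 to 3 and 260, 258 and 381 FPKM in si-circRtn4 1 to 3. Replicate 3 was highest in both groups for 16 of the 17 enzymes, a pattern held by 16.8% of all genes tested. The exception was Ebp. For the 16 enzymes, replicate 3 stood at 1.10 to 1.97 times the mean of replicates 1 and 2 in si-NC (median 1.56) and at 1.13 to 1.81 times in si-circRtn4 (median 1.57). Over all genes these medians were 1.007 and 1.004. The ratio was 1.97 and 1.81 for Idi1, 1.68 and 1.69 for Hmgcs1, and near 1 for Scap (1.009 and 1.002) and Npc2 (0.98 and 1.09). The labels give no culture, day or medium that set the libraries numbered 3 apart from the others.

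**Figure D3:**
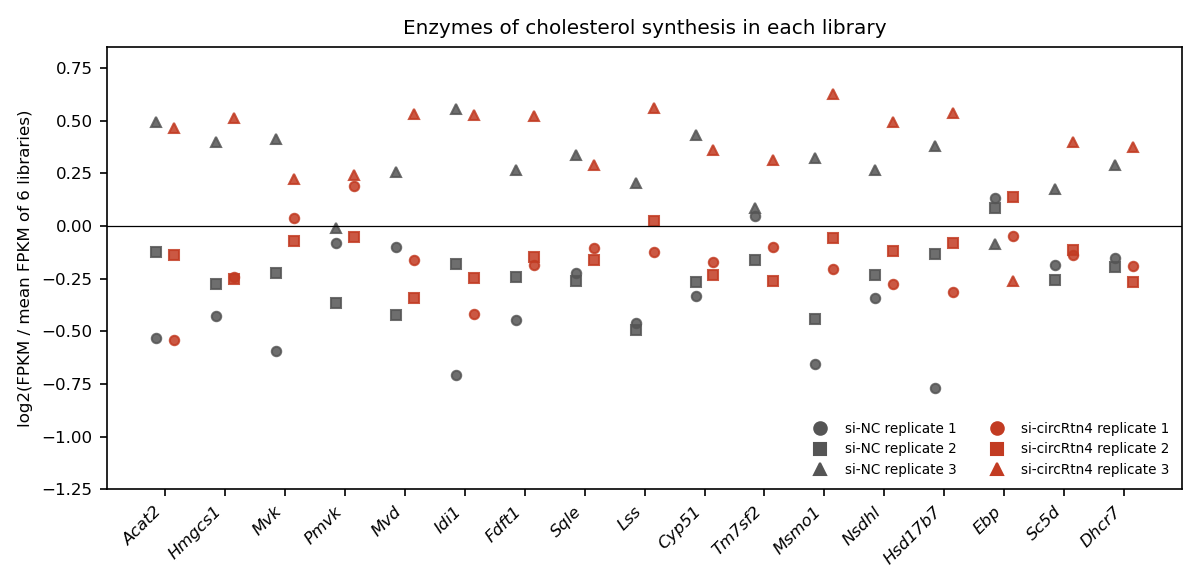
Level of the 17 enzymes tested in each library, as log2 of FPKM over the mean of the 6 libraries (y axis), with si-NC in grey and si-circRtn4 in red and symbols for replicates 1 to 3. The triangles of replicate 3 lie highest in both groups for 16 of the 17 enzymes, and the exception is Ebp.

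In the mevalonate steps, which make the isoprene units, 7 genes were listed, 6 were tested and 0 were called. Hmgcs1, which makes HMG-CoA, stood at 15.1, 16.7 and 26.7 FPKM in si-NC and at 17.1, 17.0 and 28.9 FPKM in si-circRtn4. Replicate 3 was far above the others in both groups, and the difference of 0.10 had an interval of -0.49 to 0.70 and an adjusted p of 0.844 from limma. Pmvk, phosphomevalonate kinase, stood at 34.1, 27.9 and 35.7 FPKM in si-NC and at 41.0, 34.7 and 42.6 FPKM in si-circRtn4. It was higher in each pair by 0.26, 0.30 and 0.25 on the log2 scale. Its difference of 0.27 had an adjusted p of 0.199 from limma without the replicate block and 0.0225 with it, and was 0.17 without si-NC 2. Mvk, mevalonate kinase, stood at 2.53, 3.27 and 5.08 FPKM in si-NC and at 3.92, 3.63 and 4.45 FPKM in si-circRtn4, and its pairs went both ways. The remaining tested genes Acat2, Mvd and Idi1 differed by -0.02, 0.09 and 0.05. Fdps, which makes farnesyl diphosphate, was listed at 0.184 to 0.883 FPKM on 11 to 52 reads and was not tested. It overlaps Gm22935 and Gm43738 on the same strand, so its level is uncertain.

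In the squalene and lanosterol steps all 3 genes (Fdft1, Sqle and Lss) had positive differences and 0 were called. Lss, which closes the ring to lanosterol, stood at 8.05, 7.86 and 12.7 FPKM in si-NC and at 10.2, 11.2 and 16.3 FPKM in si-circRtn4. Each si-circRtn4 library was above its same-numbered control, by 0.30, 0.47 and 0.33 on the log2 scale, although si-NC 3 lay above si-circRtn4 1 and 2. The difference of 0.37 had an interval of -0.13 to 0.87 and an adjusted p of 0.334 from limma without the replicate block and 0.0171 with it. Without the block it was 0.18 when si-circRtn4 3 was left out and 0.57 when si-NC 3 was. Fdft1 stood at 13.8, 15.96 and 22.7 FPKM in si-NC and at 16.6, 17.0 and 27.1 FPKM in si-circRtn4. Sqle, squalene epoxidase, differed by 0.06.

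In the steps after lanosterol 8 genes were tested and 0 were called, with differences of -0.09 (Ebp) to 0.34 (Msmo1). Msmo1, which removes methyl groups from the ring, stood at 5.83, 6.76 and 11.5 FPKM in si-NC and at 7.97, 8.82 and 14.2 FPKM in si-circRtn4. It was higher in each pair by 0.39, 0.34 and 0.28 on the log2 scale, a direction held in all 3 pairs by 28.4% of all genes. Its difference of 0.34 had an adjusted p from limma of 0.477 without the replicate block and 0.0192 with it. Without the block the difference was 0.11 when si-circRtn4 3 was left out and 0.60 when si-NC 3 was. Hsd17b7 stood at 4.01, 6.24 and 8.90 FPKM in si-NC and at 5.50, 6.47 and 9.91 FPKM in si-circRtn4, also higher in each pair. Dhcr7, which makes cholesterol in the last step, stood at 13.2, 12.8 and 17.97 FPKM in si-NC and at 12.9, 12.2 and 19.1 FPKM in si-circRtn4. The group means of Dhcr7 were 14.7 ± 2.85 and 14.7 ± 3.78 FPKM (SD, n = 3), and the interval of the difference was -0.44 to 0.42. Cyp51, Tm7sf2, Nsdhl and Sc5d differed by 0.04, -0.0028, 0.12 and 0.12. Cyp51 overlaps Akap9, at 5.38 to 6.28 FPKM, on the opposite strand, and Tm7sf2 overlaps Vps51 on the same strand, so both levels are uncertain.

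The promoters are shown because the enzymes varied together between libraries. RefSeq promoters (GRCm38.p6, 250 bases before to 50 after the start) were matched for 25 of the 31 genes, 15 of them enzymes, and were searched on both strands for 3 motifs. An SRE-type motif with the letters TCACNCCAC, which SREBP is known to bind, was in 1 of the 25 promoters, that of Hmgcs1, and in 1.41% of 8879 tested genes. The letters CCAAT, bound by NF-Y, a known partner of SREBP, were in 20 of 25, among them 14 of 15 enzymes, and in 43.7% of tested genes. The letters GGGCGG, bound by SP1, were in 22 of 25, among them 14 of 15 enzymes, and in 70.8% of tested genes. These are descriptions of the letters in the window. Shown are the SRE-type match of Hmgcs1 and the first CCAAT match of the 4 genes that the replicate block added to the calls, written on the strand of the gene with the motif or its complement in capitals.
Hmgcs1, chr13:119690205-119690232, plus strand: gtcaccgtcTCACCCCACttcccaggtc
Insig1, chr5:28071187-28071214, plus strand: cctcctcccATTGGctccggcggcctca
Pmvk, chr3:89454396-89454423, plus strand: tcaggttggCCAATtcacagcatctaga
Lss, chr10:76531534-76531561, plus strand: gatgctctgATTGGccgagctcgcatcg
Msmo1, chr8:64733720-64733747, minus strand: tccgcgcagCCAATgactggcgccgcta

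The neighbouring pathway was read from 62 further genes in 5 lists, of which 54 were tested. Of these, 0 rose and 2 fell, the exporter Abcg4 and the related transporter Abca7, beside 4.36% and 4.82% of all genes. limma-voom called 5 higher and 2 lower, beside 7.08% and 5.69% of all genes. The fit with the replicate block called 10 higher and 4 lower, beside 9.29% and 9.75% of all genes. The median fold change of the 54 genes was 0.084. Abcg4, which exports sterol from neural cells, stood at 2.57, 2.65 and 2.11 FPKM in si-NC and at 1.16, 0.986 and 1.03 FPKM in si-circRtn4. Its groups did not overlap, and the fold change of -0.74 had a standard error of 0.12 and an adjusted p of 0.0123 from limma. That p was 0.0554 when every detected gene was tested, 0.0611 without si-NC 2 and 0.0679 with replicates 1 and 2 of both groups. Abca7, a lipid transporter close to ABCA1 in sequence, stood at 33.5, 30.4 and 28.4 FPKM in si-NC and at 23.3, 23.1 and 23.7 FPKM in si-circRtn4, a change of -0.38 with an adjusted p of 0.0284 from limma. The call of Abca7 did not hold when every detected gene was tested (adjusted p of 0.0616 from limma), after rescaling to TPM (0.0714) or with replicates 1 and 2 of both groups (0.09999). Leaving out any library but si-NC 3 also ended it, with adjusted p of 0.0542 to 0.0938 from limma.

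The list of fatty acid synthesis genes under SREBP1 had a median of 0.17, with 11 of 14 fold changes positive and 0 called. Replicate 3 was highest in both groups for 11 of these 14 genes, a pattern held by 16.8% of all genes tested. With the replicate block 5 were higher (Fads1, Fads2, Me1, Mid1ip1 and Aacs), with fold changes of 0.38, 0.29, 0.29, 0.36 and 0.36. The block calls of this and the following lists stand beside 9.29% of all genes called higher and 9.75% called lower in that fit. In the list of esterification, oxysterol and sterol transport genes all 9 tested had positive fold changes, with a median of 0.14, and 0 were called. One of them, Soat1, passed the minimum only through si-circRtn4, with means of 0.987 FPKM in si-NC and 1.56 FPKM in si-circRtn4. Its positive sign is therefore no support for a shift of the list. Soat2, which esterifies cholesterol, and the lysosomal genes Lipa and Lamp2 differed by 0.45, 0.39 and 0.33 and were called with the replicate block. SREBP processing and sterol sensing genes (9 tested) had a median of -0.06, and Tmem97, whose protein binds NPC1, was called lower with the replicate block at -0.35. The 11 branch enzymes of the mevalonate pathway had a median of 0.02 with 0 called in either fit. The 11 tested genes of lipoprotein receptors and LXR partners had a median of -0.005. With the replicate block Rxra (0.55) and Nr1d1 (0.38) were higher and Scarb1 (-0.21), Abca7 and Abcg4 lower.

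**Figure D4:**
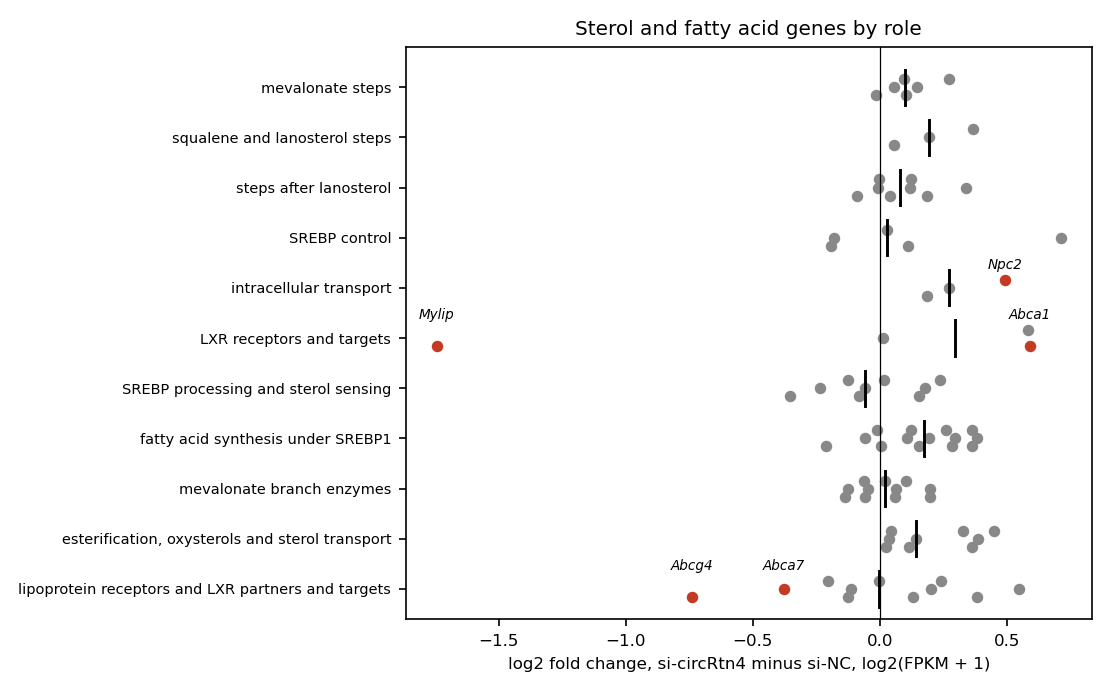
Log2 fold change (x axis, si-circRtn4 minus si-NC on the log2(FPKM + 1) scale) of 29 members and 54 further pathway genes by role; each dot is a gene, black bars are list medians, and red dots have an adjusted p under 0.05. Most dots lie within 0.5 of 0, while Mylip, Abcg4 and Abca7 are called lower and Abca1 and Npc2 higher.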

How the data were processed

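The 6 RNA libraries (3 si-NC, 3 si-circRtn4) were grouped and numbered by their labels. The authors deposited FPKM values per gene. The submitters' processing notes name Bowtie 0.12.2 and the builds mm8 and mm9, with no role given, and the counting tool is not given in the sources used here. Of the listed genes 98.3% had the coordinates of GENCODE M21 (GRCm38), and so had 28 of the 31 members. The table holds 6 further sample columns, which were not used. FPKM times gene length gave whole multiples of 1 read for 100% of values (within 0.05 reads), and library totals are sums of these recovered reads.

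Tests used limma 3.58.1 (R 4.3.3; eBayes with a mean-variance trend) on log2(FPKM + 1), for genes whose mean reached 1 FPKM, of 28442 genes above 0, with Benjamini-Hochberg adjustment over all 12749. Exact permutation tests were two-sided. Intervals are at 95%. Alternatives were another pseudocount, no filter, other scalings, limma-voom on the recovered reads, the replicate block and leaving out each library. Deviations from group means correlated at 0.331, 0.190 and 0.226 for equal replicate numbers and at most at 0.0091 for unequal ones, so the numbers were taken as pairs, a reading from the data. On simulated counts for this comparison (12796 genes tested, 194 changed by a fold of 2), 91.8% of changed genes were recovered and 4.81% of calls were false. These counts were drawn at a dispersion of 0.01 with no replicate effect. The 2 shares therefore do not carry over to genes that varied with replicate number, such as the enzymes, or to smaller changes.

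Members and lists were chosen with earlier results of these data known. Values in every library are given for genes called, regulators, exporters, the first and last enzymes and the 2 members per role with the largest difference. Of the other pathway genes the rule names those called without the block, and those called with it were named after their values were seen.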

Additional observations from a re-analysis of the deposited data

How the results depend on the processing

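Mylip was lower and the single gene called lower among the 29 under every alternative. The count of members called higher, 2 in the fit reported, was 6 with the replicate block, which pairs equal numbers, 0 when every detected gene was tested, 0 with replicates 1 and 2 of both groups (a choice made after seeing the data), and 0 to 2 when 1 library was left out. The pathway genes outside the members went from 0 higher to 5 after rescaling to TPM, 1 after rescaling without Gm23935 (13.5 to 20.7% of the FPKM sum), 2 after quantile normalization, 5 with limma-voom, 10 with the replicate block and 0 to 1 with 1 library left out. Those called lower went from 2 to 0 with all detected genes, 1 with TPM, 4 with the replicate block, 0 with replicates 1 and 2, and 0 to 2 with 1 library left out. Among all genes 556 higher and 615 lower calls became 210 and 261 with all detected genes, 902 higher with limma-voom, 1185 and 1243 with the replicate block, 119 and 141 with replicates 1 and 2, and 163 to 407 and 217 to 419 with 1 library left out.

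Signs of small differences turned, and the cause was not tested. Dhcr7 went to 0.084 with TPM, 0.015 without Gm23935 and 0.016 with limma-voom. With 1 library left out, the log2 fold change ran from -0.14 to 0.34 for Hmgcs1, from -0.030 to 0.36 for Mvk, from -0.025 to 0.39 for Fdft1, from -0.066 to 0.43 for Hsd17b7, from -0.19 to 0.14 for Dhcr7, from -0.14 to 0.18 for Srebf2 and from -0.048 to 0.088 for Nr1h2. For the 21 named genes, alternatives that kept the sign gained a call 7 times and lost one 23 times. The genes that lost it were Abca1, Npc2, Abcg4 and Abca7.

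Depth limits the genes with few reads: Nr1h3 rests on 22 to 83 reads per library, and Abcg1 and Fdps were below the minimum for a test. With 3 libraries a group the enzymes had wide intervals without the block.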
